A study of Mus musculus with 23 samples.

Results

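The genes described here encode the proteasome, the protease complex that degrades ubiquitin-tagged proteins. They were chosen by name: every gene whose symbol is Psma, Psmb, Psmc, Psmd or Psme followed by a number. This gave 43 genes out of 29894 symbols in any of the tissues' tables, with 42 of 20628 in muscle, 42 of 26702 in fat and 43 of 25623 in hypothalamus. C57BL/6 mice received 10 mg/kg oxaliplatin, a platinum chemotherapy drug, or vehicle, for 8 weeks. RNA was then sequenced from a shin muscle (tibialis anterior), the white fat under the skin and the hypothalamus. There were 4 vehicle and 5 oxaliplatin libraries in muscle, and 3 vehicle and 4 oxaliplatin libraries in each of fat and hypothalamus. For 1 muscle library the labels conflict: the title says oxaliplatin mouse 5, while the treatment field says vehicle. It was grouped by its title, and the median change and the numbers of genes called with it set to vehicle are given as well. The sources used here do not state the sex or age of the mice, or the route and schedule of dosing.

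The proteasome has a barrel-shaped core particle, built from rings of alpha subunits (Psma genes) and beta subunits (Psmb genes), and a regulatory particle that caps it. The cap has a base, with the ATPases (Psmc genes) that unfold substrates, and a lid that carries the deubiquitinase Psmd14. Interferon replaces the catalytic beta subunits Psmb6, Psmb7 and Psmb5 by Psmb9, Psmb10 and Psmb8, which forms the immunoproteasome, and induces the activator PA28, encoded by Psme1 and Psme2, both known for making peptides for MHC class I. In wasting muscle, proteasome genes and the muscle ubiquitin ligases Fbxo32 and Trim63 are known to rise together.

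The libraries held about 22400000 to 32200000 counts in muscle, 16500000 to 22700000 in fat and 23600000 to 28500000 in hypothalamus. Levels are given as CPM, counts scaled to a common library total with TMM factors within a tissue. Marker genes of each labelled tissue were high: adipocyte markers summed to 14144 to 21964 CPM in fat, muscle fibre markers to 133215 to 178641 CPM in muscle, and neuronal markers to 2124 to 3016 CPM in hypothalamus. In fat, 2 libraries stood apart. Vehicle mouse 4 had 124976 CPM of muscle fibre markers, against 15.2 to 3124 in the other fat libraries. Oxaliplatin mouse 5 had 8799 CPM of fibroblast markers, against 609 to 1034 in the other oxaliplatin libraries and 4337 to 6094 in vehicle. In hypothalamus, oxaliplatin mouse 5 had 1320 CPM of erythroid markers, against 74.3 to 251 in the other oxaliplatin libraries and 644 to 911 in vehicle, and in fat the library of the same number had 1525 CPM, against 204 to 552 and 680 to 936. In whole tissue, fewer cells of a type and less RNA per cell cannot be told apart.

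The 2 genes with the most restricted expression, Psma8 (a testis alpha subunit) and Psmb11 (a thymus beta subunit), were too low to test. Psma8 was at most 0.65 CPM in any library, and Psmb11, analysed only in hypothalamus, at most 0.33 CPM. The other 41 genes were tested in each tissue. Per kilobase of exon in vehicle mice, the catalytic core gene Psmb5 ranked first in muscle (103 ± 18.7 CPM per kb, SD, n = 4) and first in fat (52.4 ± 7.03, SD, n = 3), and second in hypothalamus (70.4 ± 4.55, SD, n = 3). In hypothalamus the ATPase Psmc5 ranked above it at 73.8 ± 2.10 CPM per kb (SD, n = 3), within the spread of the libraries. At the other end, Psmb9 ranked last in muscle (0.844 ± 0.319 CPM per kb, SD, n = 4) and hypothalamus (0.462 ± 0.0626, SD, n = 3), with Psmb8 next to last in both. In fat the last place was held by Psmd9, an assembly chaperone of the base, at 2.72 ± 0.338 CPM per kb (SD, n = 3). The length used is that of all annotated exons of a gene in any transcript, with overlaps counted once. It was shortest for Psmb5 (899 bases) and among the longest for Psmd9 (7248 bases), so the ranks depend on the annotation. In CPM not divided by length, Psmb6 was above Psmb5 in every vehicle library of each tissue.

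No proteasome gene passed the test between oxaliplatin and vehicle in any tissue. The test was edgeR's quasi-likelihood F test with Benjamini-Hochberg adjustment over all genes and a threshold of 0.05. It called 0 of 41 in muscle, where 0.163% of all genes passed, 0 of 41 in fat, where 0% passed, and 0 of 41 in hypothalamus, where 0.148% passed. At an unadjusted p under 0.05 there were 2 proteasome genes in muscle (4.88%, against 9.59% of all genes), 7 in fat (17.1%, against 26.1%) and 3 in hypothalamus (7.32%, against 10.2%). In muscle 1 of these was higher (4.8% of all genes were) and 1 lower (4.79%). In fat 3 were higher (13.4%) and 4 lower (12.7%). In hypothalamus 3 were higher (6.2%) and 0 lower (4.01%). DESeq2, run as an alternative, called 0 in muscle (1.72% of all genes), 3 in fat (7.32%, against 13.3% of all genes) and 0 in hypothalamus (1.54% of all genes). At the unadjusted threshold and with DESeq2, the share of proteasome genes was below that of all genes in each tissue. The libraries are numbered by mouse, and the p-values measure the spread between these samples.

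**Figure D1:**
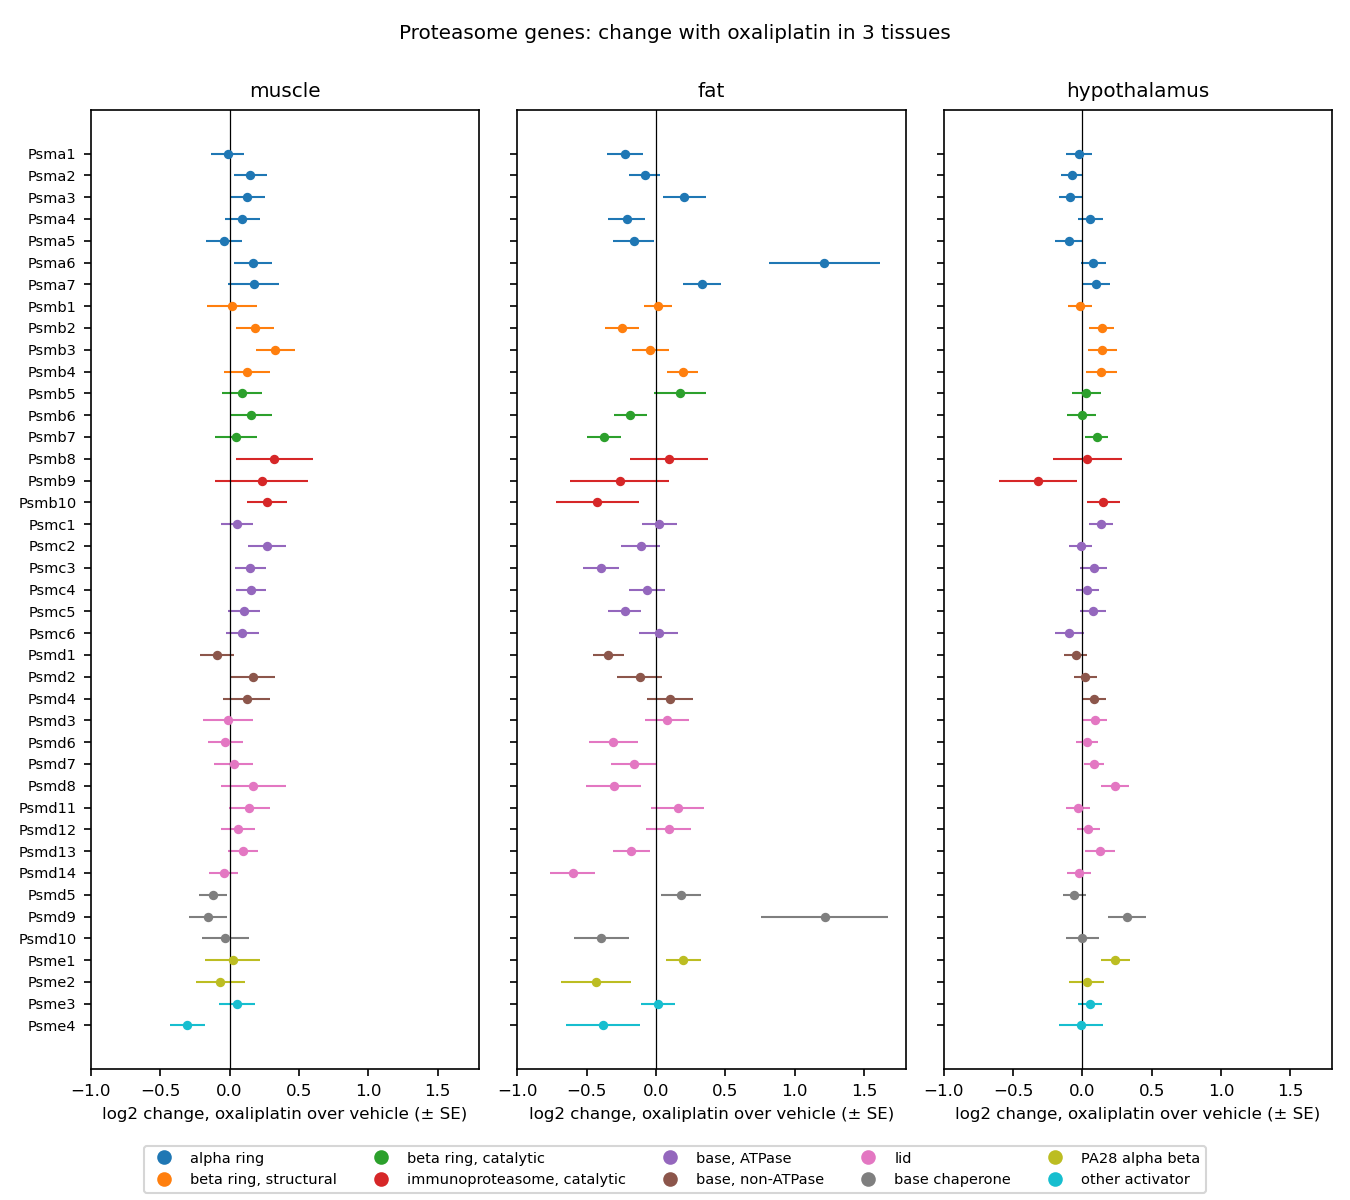
Log2 change with oxaliplatin over vehicle, with its standard error, for the 41 tested proteasome genes in muscle, fat and hypothalamus, coloured by role. Most genes lie close to 0 in each tissue. Psma6 and Psmd9 in fat lie furthest to the right, both at 1.22, with wide errors.

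In muscle the proteasome genes were slightly higher on balance. The median log2 change was 0.09, against -0.01 over all genes, and 30 of 41 genes (73.2%) had a change above 0, against 47.8% of all genes. All 6 base ATPases, all 4 structural beta genes, all 3 constitutive catalytic genes and all 3 immunoproteasome genes were above 0, while all 3 base chaperones were below 0. None of these passed the test. The groups did not overlap for 0 genes in either direction, against 2.18% of all genes higher and 1.7% lower. The balance rested in part on single libraries: the median was 0.02 without oxaliplatin mouse 1 and 0.03 without vehicle mouse 4. With oxaliplatin mouse 5 set to vehicle it was 0.10. In that fit 0 of 41 proteasome genes were called, and 0 over all genes. The 5 endothelial markers, all detected, summed to 104 to 140 CPM in vehicle muscle and 155 to 167 CPM in oxaliplatin muscle, and their part in this balance was not tested.

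The smallest p in muscle belonged to Psme4, which encodes the activator PA200. Its level was 87.0, 83.4, 99.96 and 102 CPM in vehicle mice 1 to 4 and 87.2, 81.8, 65.8, 78.0 and 64.1 CPM in oxaliplatin mice 1 to 5. The lowest 4 values were all from oxaliplatin mice, but mouse 1 of that group lay within the vehicle range. The log2 change was -0.30 ± 0.13 (SE; edgeR adjusted p = 0.453). Psmb3, a structural beta subunit, was at 186, 142, 160 and 120 CPM in vehicle and 216, 179, 193, 180 and 186 CPM in oxaliplatin, so only vehicle mouse 1 reached the treated range. Its log2 change was 0.33 ± 0.14 (SE; edgeR adjusted p = 0.461). Psmc2, an ATPase of the base, was at 141, 127, 138 and 124 CPM in vehicle and 201, 145, 140, 140 and 172 CPM in oxaliplatin. The groups overlapped narrowly, and the log2 change was 0.27 ± 0.14 (SE; edgeR adjusted p = 0.576).

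The constitutive catalytic genes of muscle overlapped between the groups. Psmb5, which cuts after hydrophobic residues, was at 104, 100.4, 98.3 and 67.8 CPM in vehicle and 102, 101, 114, 91.3 and 84.9 CPM in oxaliplatin. Psmb6, which cuts after acidic residues, was at 207, 166, 181 and 126 CPM in vehicle and 195, 195, 202, 193 and 162 CPM in oxaliplatin. Psmb7, which cuts after basic residues, was at 172, 170.1, 153 and 106 CPM in vehicle and 172, 154, 167, 145 and 137 CPM in oxaliplatin. In all 3 genes vehicle mouse 4 was the lowest library of all 9. Their log2 changes were 0.09, 0.16 and 0.05, with edgeR adjusted p of 0.928, 0.841 and 0.977.

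The immunoproteasome genes in muscle varied more between oxaliplatin mice than between vehicle mice. Psmb8 was at 6.60, 6.88, 7.92 and 5.34 CPM in vehicle and 12.8, 9.04, 10.2, 5.52 and 4.36 CPM in oxaliplatin. Psmb9 was at 1.93, 3.34, 4.61 and 2.48 CPM in vehicle and 5.61, 3.09, 5.05, 2.37 and 2.14 CPM in oxaliplatin. Psmb10 was at 11.3, 9.89, 10.0 and 8.27 CPM in vehicle and 11.2, 12.1, 14.8, 11.8 and 9.67 CPM in oxaliplatin. For all 3 genes oxaliplatin mouse 5 was the lowest of its group, while mouse 1 was highest for Psmb8 and Psmb9 and mouse 3 for Psmb10. The log2 changes were 0.32 ± 0.28, 0.23 ± 0.34 and 0.27 ± 0.14 (SE), with edgeR adjusted p of 0.816, 0.916 and 0.612. The summed level of 12 leukocyte marker genes was 75.6, 100.5, 212 and 422 CPM in vehicle and 160, 84.5, 60.9, 71.4 and 75.7 CPM in oxaliplatin. Mouse 1 was the highest oxaliplatin library for this sum, as for Psmb8 and Psmb9, and among vehicle libraries the sum was highest in mouse 4, where Psmb8 was lowest. The part of these cells in the immunoproteasome values was not tested. Psme1 was at 23.3, 30.8, 22.3 and 17.6 CPM in vehicle and 22.6, 24.7, 32.6, 23.9 and 15.8 CPM in oxaliplatin, a log2 change of 0.02 ± 0.20 (SE; edgeR adjusted p = 0.994). Psme2 was at 27.1, 24.9, 21.3 and 15.2 CPM in vehicle and 25.1, 21.7, 23.9, 18.8 and 15.9 CPM in oxaliplatin, a log2 change of -0.07 ± 0.18 (SE; edgeR adjusted p = 0.971). Both PA28 genes were low in vehicle mouse 4 and in oxaliplatin mouse 5.

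The muscle ubiquitin ligases divided the oxaliplatin mice differently. Fbxo32 (atrogin-1) was at 197, 184, 211 and 264 CPM in vehicle and 762, 173, 194, 131 and 519 CPM in oxaliplatin. Trim63 (MuRF1) was at 178, 185, 201 and 184 CPM in vehicle and 428, 177, 177, 177 and 342 CPM in oxaliplatin. In both genes oxaliplatin mice 1 and 5 were above every vehicle library, and mice 2, 3 and 4 were not. The 5 erythroid markers, all detected, divided the libraries in the same way: they summed to 89.6 and 108 CPM in oxaliplatin mice 1 and 5, to 1709, 766 and 1942 CPM in mice 2, 3 and 4, and to 554 to 932 CPM in vehicle, and their part was not tested. The log2 changes of Fbxo32 and Trim63, 0.73 ± 0.51 and 0.48 ± 0.27 (SE), had edgeR adjusted p of 0.746 and 0.642. Mouse 5 is the library whose treatment field says vehicle. Read as vehicle, it would leave mouse 1 as the only oxaliplatin library above the other vehicle libraries for both ligases. The 17 base and lid genes had a mean log2 level, relative to the vehicle mean, of 0.35 in mouse 1 and 0.11 in mouse 5, against -0.03 to -0.01 in mice 2, 3 and 4, with vehicle libraries from -0.13 to 0.11. The 14 core genes did not show mouse 5 as high: they were at 0.32 in mouse 1, 0.11 in mouse 2, 0.18 in mouse 3, 0.02 in mouse 4 and 0.01 in mouse 5, with vehicle libraries from -0.36 to 0.23. Over all 41 genes the highest library was oxaliplatin mouse 1, with 35 of 41 genes above the vehicle mean, a count that vehicle mouse 1 equalled at a lower mean level (0.31 against 0.12), and the lowest was vehicle mouse 4, with 4 of 41.

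**Figure D2:**
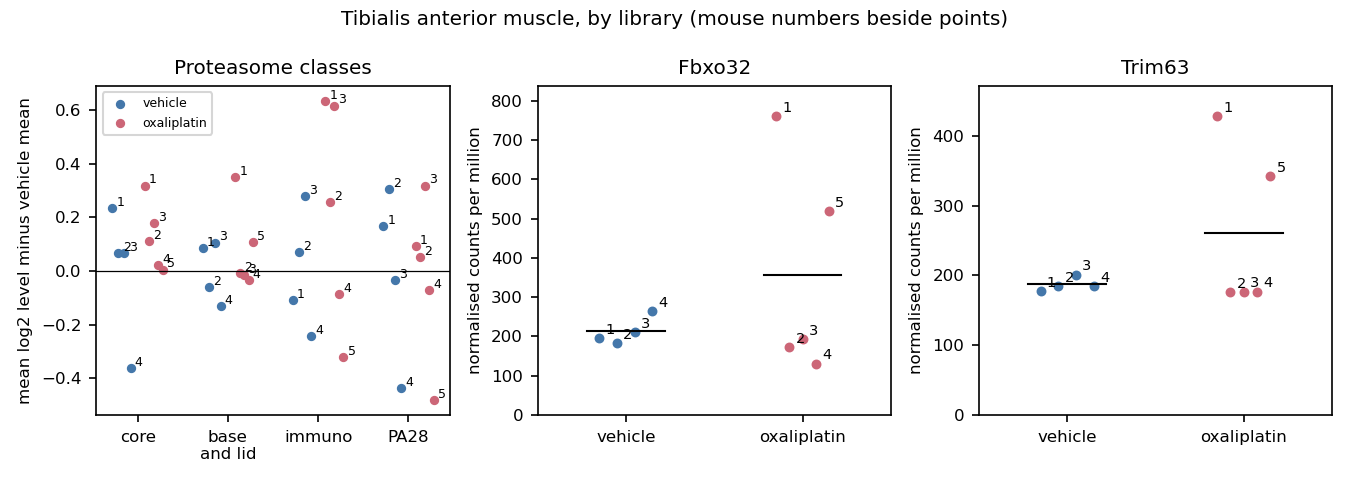
Muscle libraries, with the mouse number beside each point: mean log2 level of 4 classes of proteasome gene relative to the vehicle mean (left), and CPM of Fbxo32 and Trim63 (middle and right, bars are group means). Oxaliplatin mice 1 and 5 stand above the vehicle mice for both ligases, and mouse 1 is the highest for the base and lid class. Oxaliplatin mouse 5 is the library whose labels conflict.

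In fat the changes of the proteasome genes lay on both sides of 0, and none passed the test. The median log2 change was -0.11, against 0.03 over all genes, and 17 of 41 genes (41.5%) were above 0, against 52.4% of all genes. For 4 genes (9.76%) every oxaliplatin library was below every vehicle library, against 11.2% of all genes, and for 0 genes the reverse held, against 10.3% of all genes. The 4 genes were Psmd14, Psmd1, Psmc3 and Psmb7. The range of changes, -0.60 to 1.22, was wider than in muscle (-0.30 to 0.33) or hypothalamus (-0.32 to 0.32).

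Psmd14, the lid's deubiquitinase, had the smallest p. Its level was 34.7, 28.7 and 26.4 CPM in vehicle mice 1, 2 and 4 and 17.3, 19.7, 17.95 and 24.0 CPM in oxaliplatin mice 2 to 5. All oxaliplatin values were lower, mouse 5 the least so. The log2 change was -0.60 ± 0.16 (SE; edgeR adjusted p = 0.118), and the DESeq2 adjusted p was 0.0155. Psmd1, the large scaffold subunit of the base, was at 109, 90.7 and 107 CPM in vehicle and 75.9, 83.5, 83.3 and 79.5 CPM in oxaliplatin, a log2 change of -0.34 ± 0.11 (SE; edgeR adjusted p = 0.133), with a DESeq2 adjusted p of 0.0298. Psmc3, a base ATPase, was at 78.1, 68.9 and 95.0 CPM in vehicle and 60.3, 60.4, 60.5 and 63.7 CPM in oxaliplatin, a log2 change of -0.40 ± 0.13 (SE; edgeR adjusted p = 0.133). The oxaliplatin libraries were closely alike for Psmc3, and vehicle mouse 4, the library rich in muscle RNA, was the highest.

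Among the constitutive catalytic genes of fat, Psmb7 was lower and the others overlapped. Psmb7 was at 64.4, 49.9 and 65.3 CPM in vehicle and 46.7, 45.4, 47.7 and 44.8 CPM in oxaliplatin, a log2 change of -0.38 ± 0.12 (SE; edgeR adjusted p = 0.135). Psmb5 was at 49.8, 39.8 and 51.6 CPM in vehicle and 62.9, 59.0, 51.1 and 39.3 CPM in oxaliplatin, a log2 change of 0.17 ± 0.18 (SE; edgeR adjusted p = 0.560). Psmb6 was at 75.4, 65.3 and 82.3 CPM in vehicle and 62.0, 69.9, 68.4 and 61.4 CPM in oxaliplatin, a log2 change of -0.18 ± 0.12 (SE; edgeR adjusted p = 0.340). Exons of Psmb7 share 405 bases (11.8% of its exon length) with Nek6 on the opposite strand, and no source used here states the strand setting of the counting.

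Psma6 and Psmd9 had the largest changes of any proteasome gene in fat. They, and Psma7, were singled out after their values were seen, since their p was not among the smallest 3. Psma6, an alpha ring subunit, was at 48.5, 40.2 and 41.7 CPM in vehicle and 145, 123, 95.4 and 40.2 CPM in oxaliplatin mice 2 to 5. Mice 2, 3 and 4 were far above vehicle and mouse 5 was within it. The log2 change was 1.22 ± 0.40 (SE; edgeR adjusted p = 0.137), with a DESeq2 adjusted p of 0.0307. Of the 7 alpha ring genes tested, 3 had a change above 0 and 4 below, with a median of -0.08, and Psma7 had the next largest at 0.33 ± 0.14 (SE; edgeR adjusted p = 0.181). In muscle and hypothalamus the log2 change of Psma6 was 0.17 and 0.08. The stretch just before the Psma6 start is shown because this gene stands out from its ring. It is the 250 bases at chr12:55383972-55384221 (plus strand, RefSeq sequence, GRCm38.p6), with matches to CCAAT on either strand in capitals, and no annotated exon falls in it.
Psma6: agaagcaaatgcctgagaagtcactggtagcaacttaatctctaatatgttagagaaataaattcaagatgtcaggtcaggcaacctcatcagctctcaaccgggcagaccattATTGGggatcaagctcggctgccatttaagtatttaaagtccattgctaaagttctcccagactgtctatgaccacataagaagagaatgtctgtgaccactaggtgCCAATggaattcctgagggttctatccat
It holds 2 matches to CCAAT. The motif was found in 14 of 36 proteasome promoters with a RefSeq sequence (38.9%), against 34.5% of 27025 promoters. The antioxidant response motif TGACNNNGC, searched on both strands, was not in the Psma6 window and was in 5 of 36 proteasome promoters (13.9%: Psmb5, Psmb6, Psmc6, Psmd12 and Psmd9), against 10.15% of all promoters.

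Psmd9 was at 20.9, 16.9 and 21.4 CPM in vehicle and 76.8, 55.8, 31.8 and 18.7 CPM in oxaliplatin mice 2 to 5. As for Psma6, mice 2, 3 and 4 were above vehicle and mouse 5 was within it. The log2 change was 1.22 ± 0.46 (SE; edgeR adjusted p = 0.159). The value is uncertain, because the gene model of Psmd9 (chr5:123169413-123250131, plus strand, GRCm38) encloses other genes on the opposite strand. One of them is Hpd, a tyrosine breakdown enzyme, which lies inside a Psmd9 intron and shares no exon base with it. Hpd was at 1.07, 0.92 and 0.88 CPM in vehicle and 43.4, 26.5, 18.8 and 1.53 CPM in oxaliplatin. The oxaliplatin mice stood in the same order for Psmd9, and also for Psma6, which lies on another chromosome. Whether Hpd reads entered the Psmd9 value was not tested. The lincRNA Gm26745, not analysed here, shares 1849 bases (25.5%) of the Psmd9 exons. Reads from the exon bases shared by Psmd9 and Gm26745 cannot be told apart without strand. The other base chaperones, Psmd5 and Psmd10, had log2 changes of 0.18 ± 0.15 and -0.39 ± 0.20 (SE), with edgeR adjusted p of 0.441 and 0.245.

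**Figure D3:**
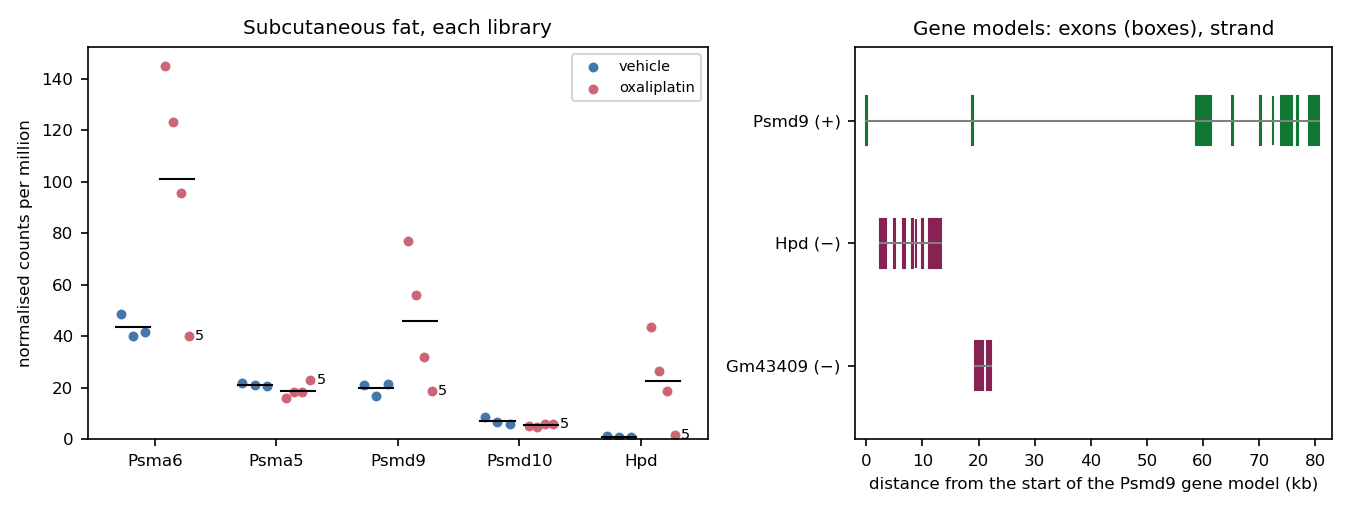
Left, CPM of Psma6, Psma5, Psmd9, Psmd10 and Hpd in each fat library (bars are group means, and oxaliplatin mouse 5 is marked 5). Right, exons of Psmd9, Hpd and Gm43409 by distance from the Psmd9 start in kb. Hpd and Gm43409 share no exon base with Psmd9, and Gm26745, which does, is not drawn. Oxaliplatin mice 2, 3 and 4 are above vehicle for Psma6, Psmd9 and Hpd, and mouse 5 is not.

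The immunoproteasome genes of fat were highest in oxaliplatin mouse 5, and none passed the test. Psmb8 was at 43.9, 56.5 and 34.4 CPM in vehicle and 39.7, 31.9, 53.0 and 67.0 CPM in oxaliplatin, a log2 change of 0.09 ± 0.28 (SE; edgeR adjusted p = 0.852). Psmb9 was at 23.9, 28.8 and 19.2 CPM in vehicle and 15.01, 12.2, 18.5 and 34.3 CPM in oxaliplatin, a log2 change of -0.26 ± 0.36 (SE; edgeR adjusted p = 0.652). Psmb10 was at 27.8, 28.6 and 24.9 CPM in vehicle and 14.96, 15.7, 16.5 and 33.7 CPM in oxaliplatin, a log2 change of -0.42 ± 0.30 (SE; edgeR adjusted p = 0.383). Of the 3 genes, Psmb10 divided the oxaliplatin libraries most clearly: mice 2, 3 and 4 were below every vehicle library and mouse 5 above every one.

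The PA28 genes of fat did not move together. Psme1 was at 49.4, 51.2 and 38.9 CPM in vehicle and 54.9, 48.8, 55.4 and 53.9 CPM in oxaliplatin, a log2 change of 0.20 ± 0.13 (SE; edgeR adjusted p = 0.344). Psme2 was at 44.7, 44.3 and 30.8 CPM in vehicle and 23.5, 24.0, 27.2 and 43.5 CPM in oxaliplatin, a log2 change of -0.43 ± 0.25 (SE; edgeR adjusted p = 0.301). The ratio of Psme2 to Psme1 counts was 0.90, 0.86 and 0.79 in vehicle and 0.43, 0.49, 0.49 and 0.81 in oxaliplatin, so mouse 5 again lay with vehicle. The 12 leukocyte markers, all detected, also were highest in oxaliplatin mouse 5 in sum: they came to 652, 1332 and 747 CPM in vehicle and to 331, 480, 594 and 1634 CPM in oxaliplatin mice 2 to 5. The MHC class II chain Cd74 was at 289, 583 and 316 CPM in vehicle and 4.48, 44.1, 56.0 and 484 CPM in oxaliplatin, below every vehicle library in mice 2, 3 and 4. The markers did not all divide in this way: the pan-leukocyte gene Ptprc was at 33.3, 59.1 and 34.4 CPM in vehicle and 10.96, 47.3, 46.6 and 166 CPM in oxaliplatin, with mice 3 and 4 inside the vehicle range. Their part in the changes of the immunoproteasome and PA28 genes was not tested.

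Without oxaliplatin mouse 5, edgeR called 6 of 41 proteasome genes in fat (14.6%), against 25.5% of all genes, with 3 higher and 3 lower. Psma6 was higher by 1.48 ± 0.17, Psmd9 by 1.47 ± 0.31 and Psma7 by 0.43 ± 0.10 (log2, SE), with adjusted p of 0.00199, 0.0161 and 0.0190. Psmb10 was at -0.79 ± 0.12, Psmd14 at -0.71 ± 0.14 and Psme2 at -0.68 ± 0.17, with adjusted p of 0.00453, 0.0113 and 0.0237. For Psma6, Psmd9, Psmb10 and Psme2, mouse 5 had already stood apart from mice 2 to 4. The adjusted p without it are therefore no separate support for these genes. With vehicle mouse 4 left out as well, the same 6 genes were called and Psmb9 joined them at -0.79 ± 0.20 (adjusted p = 0.0394), which made 7 of 41 (17.1%), against 20.1% of all genes. The fibroblast markers divide the oxaliplatin libraries in the same way, with mouse 5 alone at the vehicle level or above, and their part in these calls was not tested. Psmd1, Psmc3 and Psmb7, whose groups did not overlap with all libraries in, were not among them. Without vehicle mouse 4 alone, 0 of 41 were called, and 0% of all genes. The median of the 41 genes then moved from -0.11 to 0.01, against 0.06 over all genes. With both libraries out it was 0.022, against 0.025 over all genes. The negative median in fat thus rested on vehicle mouse 4, though without that library alone the 41 genes still lay below all genes. Above 0 were 16 of 41 genes without oxaliplatin mouse 5 (50.6% of all genes), 21 of 41 without vehicle mouse 4 (55.1%) and 23 of 41 without both (51.8%).

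**Figure D4:**
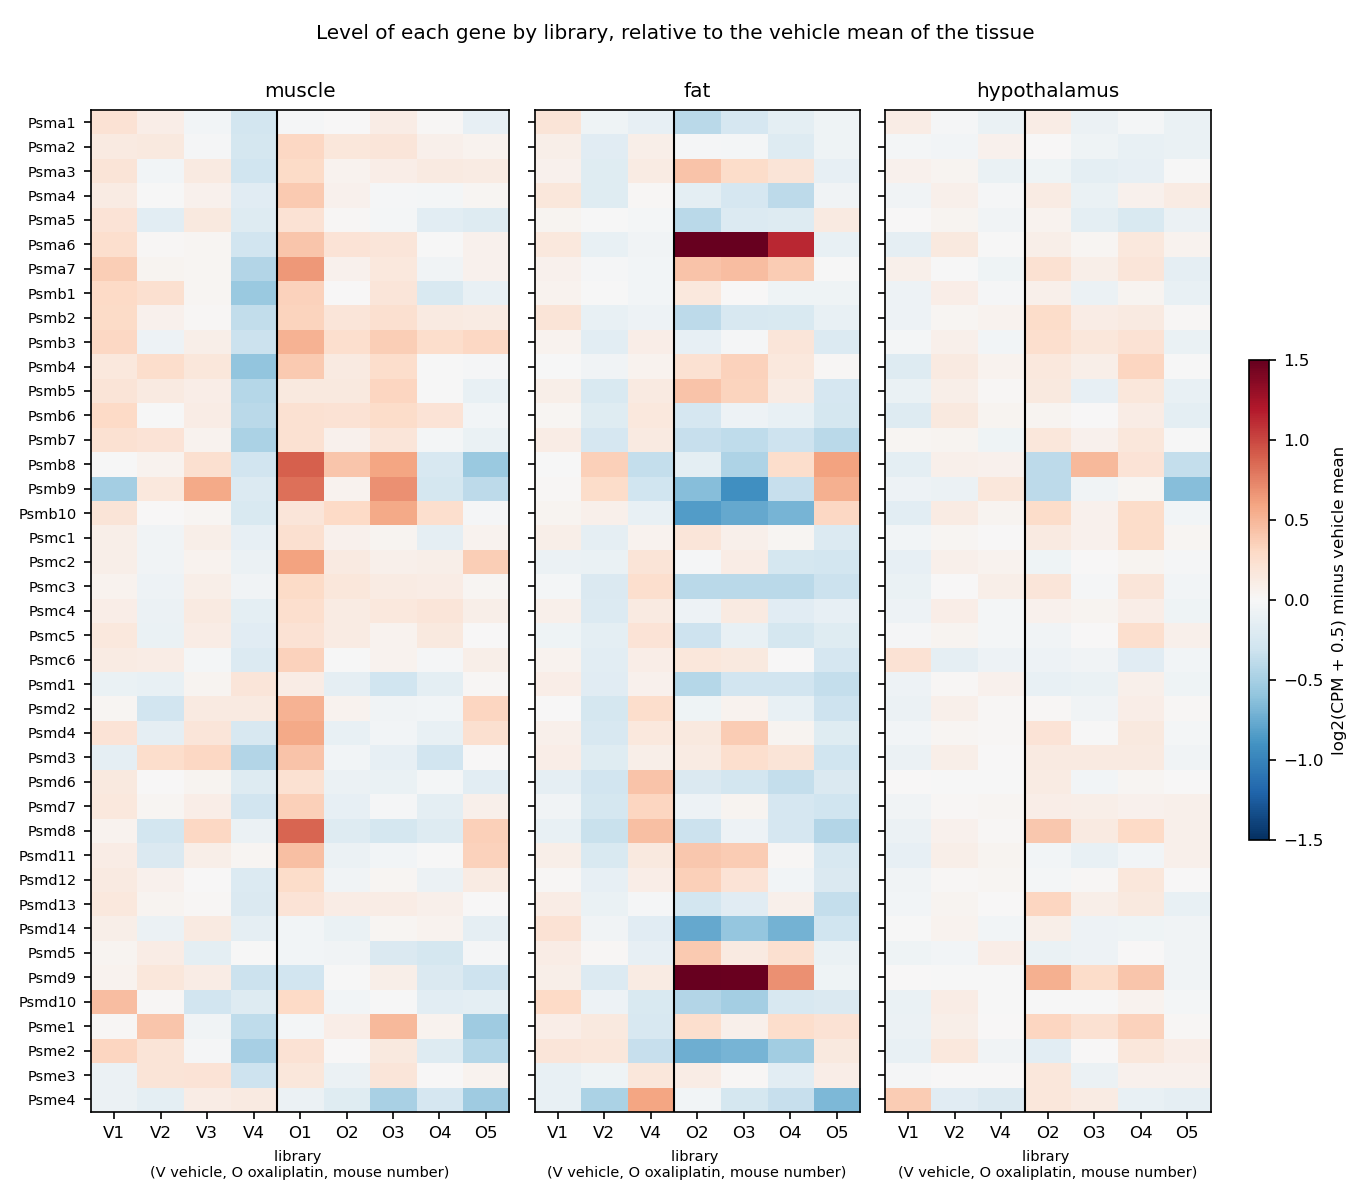
Level of each tested proteasome gene in each library, as log2(CPM + 0.5) minus the vehicle mean of the tissue, with vehicle libraries left of the line (red higher, blue lower). In fat the rows of Psma6 and Psmd9 are red and that of Psmb10 blue in oxaliplatin mice 2, 3 and 4, and not in mouse 5.

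In hypothalamus no proteasome gene passed the test, and the changes lay between -0.32 and 0.32. The median log2 change was 0.04, against 0.01 over all genes, and 26 of 41 (63.4%) were above 0, against 51.9% of all genes. In 2 genes, the lid subunits Psmd7 and Psmd8 (4.88%), every oxaliplatin library was above every vehicle library, against 5.57% of all genes. For 0 genes the reverse held, against 4.35% of all genes. Psmd8 had the smallest p: it was at 60.4, 67.1 and 64.5 CPM in vehicle mice 1, 2 and 4 and 84.6, 70.4, 78.5 and 67.5 CPM in oxaliplatin mice 2 to 5, a log2 change of 0.23 ± 0.10 (SE; edgeR adjusted p = 0.474). Psmd9 was at 19.7, 19.5 and 19.5 CPM in vehicle and 28.6, 23.9, 26.2 and 18.8 CPM in oxaliplatin, a log2 change of 0.32 ± 0.14 (SE; edgeR adjusted p = 0.475). As in fat, mice 2, 3 and 4 were above vehicle and mouse 5 was not, but the labels do not say that equal mouse numbers in 2 tissues are 1 animal. Psme1 was at 31.8, 35.9 and 33.8 CPM in vehicle and 42.5, 39.8, 43.2 and 34.2 CPM in oxaliplatin, a log2 change of 0.24 ± 0.10 (SE; edgeR adjusted p = 0.484). The 5 endothelial markers, all detected, summed to 67.0 to 73.0 CPM in vehicle and 116 to 185 CPM in oxaliplatin. The 4 oligodendrocyte markers, all detected, summed to 1489 CPM in oxaliplatin mouse 2. They came to 3043 to 3714 CPM in the other oxaliplatin libraries and 3370 to 4138 CPM in vehicle. Mouse 2 was the highest library for Psmd8 and Psmd9 but not for Psme1. The part of these markers, and of the erythroid markers, in these values was not tested. Without oxaliplatin mouse 5 the log2 changes of Psmd8, Psmd9 and Psme1 were 0.27, 0.41 and 0.29. Their edgeR adjusted p were 0.150, 0.0585 and 0.105, and 0 of 41 proteasome genes were called. Over all genes 655 of 18781 were called in that fit, against 28 of 18941 with every library in.

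The catalytic genes of hypothalamus overlapped between the groups. Psmb5 was at 58.9, 67.0 and 63.9 CPM in vehicle and 70.2, 58.0, 71.0 and 58.6 CPM in oxaliplatin. Psmb6 was at 73.6, 93.4 and 86.9 CPM in vehicle and 86.3, 84.2, 91.02 and 75.9 CPM in oxaliplatin. Psmb7 was at 64.7, 65.1 and 60.7 CPM in vehicle and 71.4, 66.4, 71.4 and 63.4 CPM in oxaliplatin. Their log2 changes were 0.03, 0.00 (-0.004 before rounding) and 0.10, with edgeR adjusted p of 0.941, 0.992 and 0.680. Of the inducible genes, Psmb8 was at 4.13, 4.93 and 4.87 CPM in vehicle and 3.42, 6.70, 5.42 and 3.49 CPM in oxaliplatin. Psmb9 was at 1.57, 1.55 and 1.95 CPM in vehicle and 1.17, 1.60, 1.73 and 0.90 CPM in oxaliplatin, from only 22 to 53 counts a library. Psmb10 was at 20.05, 24.4 and 23.0 CPM in vehicle and 27.2, 23.4, 27.3 and 21.8 CPM in oxaliplatin. These too overlapped, with log2 changes of 0.04, -0.32 and 0.15 and edgeR adjusted p of 0.969, 0.703 and 0.673. Psme2 was at 13.5, 16.4 and 14.1 CPM in vehicle and 13.1, 14.7, 16.5 and 15.7 CPM in oxaliplatin, a log2 change of 0.03 ± 0.12 (SE; edgeR adjusted p = 0.944).

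**Figure D5:**
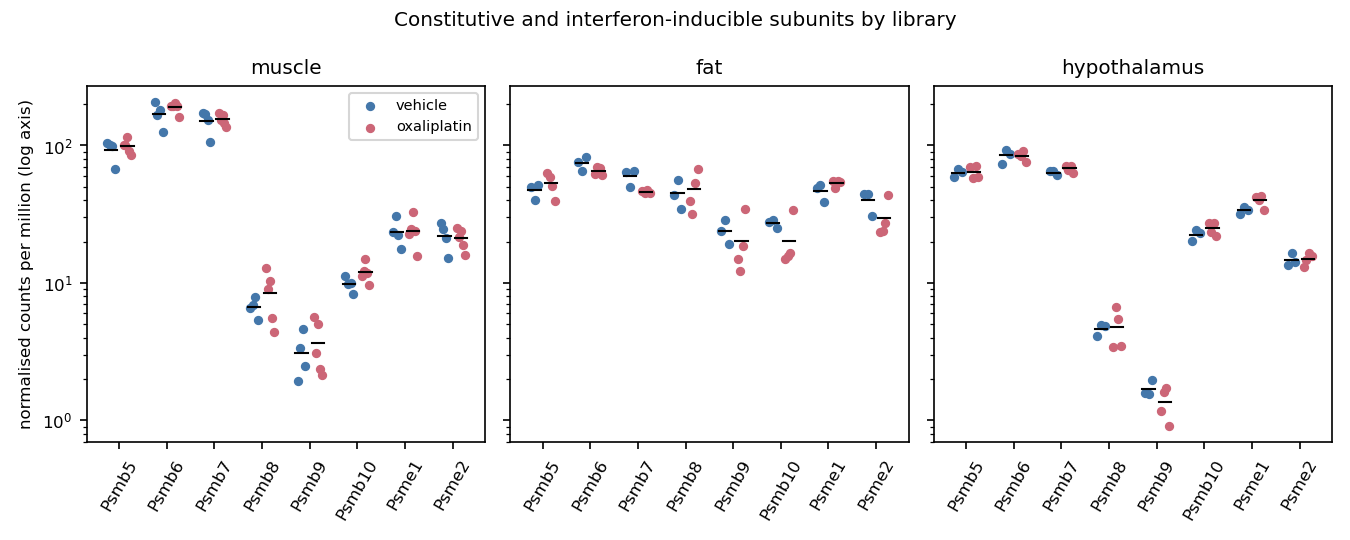
CPM (log axis) of the constitutive catalytic genes Psmb5, Psmb6 and Psmb7, the immunoproteasome genes Psmb8, Psmb9 and Psmb10 and the PA28 genes Psme1 and Psme2 in every library, with bars at the group means. In fat Psmb8 lies between 31.9 and 67.0 CPM, while in hypothalamus it lies between 3.42 and 6.70 CPM, and CPM are scaled within each tissue.

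The oxaliplatin effects were compared between tissues in fits over the libraries of both tissues. No proteasome gene differed past the threshold: 0 of 41 between fat and muscle (0.239% of all genes), 0 of 41 between fat and hypothalamus (0.311%) and 0 of 41 between muscle and hypothalamus (0.0689%). At an unadjusted p under 0.05 there were 5 (12.2%, against 17% of all genes), 7 (17.1%, against 19.7%) and 1 (2.44%, against 9.33%). For fat minus muscle the smallest p were those of Psmd9 (1.41 ± 0.45, adjusted p = 0.145), Psmd14 (-0.53 ± 0.18, adjusted p = 0.158) and Psmc3 (-0.52 ± 0.19, adjusted p = 0.181), as log2 differences with SE. For fat minus hypothalamus they were Psmb7 (-0.48 ± 0.14, adjusted p = 0.115), Psmd14 (-0.58 ± 0.18, adjusted p = 0.135) and Psmc3 (-0.48 ± 0.16, adjusted p = 0.145). For muscle minus hypothalamus they were Psmd9 (-0.44 ± 0.21), Psmc2 (0.31 ± 0.17) and Psma2 (0.25 ± 0.15), with adjusted p of 0.534, 0.633 and 0.657. Without oxaliplatin mouse 5 of fat, 4 proteasome genes differed past the threshold between fat and muscle (9.76%, against 8.64% of all genes). Between fat and hypothalamus 6 did (14.6%, against 15.2%). Psmd14 was among them both times (-0.66, edgeR adjusted p = 0.0211, and -0.69, edgeR adjusted p = 0.00959). Both fits used the same fat libraries, so these are not separate results.

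Between tissues, some proteasome genes did differ, though a smaller share of them than of all genes. Fat and hypothalamus libraries were made with the same kit, and between vehicle mice 23 of 41 proteasome genes differed (56.1%), against 71.7% of all genes. Higher in fat were 4 of 41, against 37.5% of all genes, and lower in fat were 19 of 41, against 34.2%. The 4 were Psmb9, Psmb8, Psme2 and Psme4. Psmb9 was at 21.1, 25.7 and 17.6 CPM in fat and 1.61, 1.59 and 2.02 CPM in hypothalamus on a scale common to both tissues, 12.4-fold higher (log2 3.63 ± 0.20, SE; edgeR adjusted p = 2.78e-06). Psmb8 was at 38.7, 50.5 and 31.5 CPM in fat and 4.22, 5.07 and 5.03 CPM in hypothalamus, 8.45-fold higher (log2 3.08 ± 0.20, SE). Exons of Psmb8 share 14.7% of their length with Gm20496 and those of Psmb9 share 5.79% with Tap1, both on the opposite strand. The 12 leukocyte markers summed to 652 to 1332 CPM in fat and 104 to 150 CPM in hypothalamus, each on its own tissue's scale, and their part in this difference was not tested.

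The third immunoproteasome gene, Psmb10, did not pass between the tissues (log2 0.08 ± 0.11, SE; edgeR adjusted p = 0.555), although it takes its place in the same ring. Psme2 was at 39.4, 39.5 and 28.2 CPM in fat and 13.8, 16.9 and 14.6 CPM in hypothalamus (log2 1.25 ± 0.16, SE), while its partner Psme1 did not pass (log2 0.26 ± 0.12, SE; edgeR adjusted p = 0.0775). Psme4 was at 105, 82.9 and 178 CPM in fat and 33.5, 22.8 and 22.2 CPM in hypothalamus (log2 2.23 ± 0.33, SE), with the muscle-rich vehicle mouse 4 the highest. Lower in fat were the core genes Psmb5 (-0.62), Psmb1 (-0.69), Psmb4 (-0.77) and Psma2 (-0.76), the ATPases Psmc5 (-1.30) and Psmc1 (-0.79) and the chaperone Psmd5 (-1.30), on the log2 scale. Psmc5 was at 39.9, 38.1 and 49.9 CPM in fat and 104, 109 and 104 CPM in hypothalamus. Psmb6 (-0.38) passed narrowly, with an adjusted p of 0.0409 that ranged from 0.00824 to 0.122 over the alternatives.

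The start of Psmb8 is shown because this gene and Psmb9 set the tissues apart. Of 36 proteasome promoters searched, only that of Psmb8 held the gamma-activated motif TTCNNNGAA on either strand. This share (2.78%) was below that of all promoters (7.18%), and Psmb9 had no match. The part of the motif in the tissue difference was not tested. The match, in capitals, lies in the 30 bases at chr17:34198087-34198116 (plus strand, RefSeq sequence, GRCm38.p6), which overlap an exon of another Psmb8 model, with 88 bases between the match and the RefSeq start.
Psmb8: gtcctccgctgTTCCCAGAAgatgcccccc
The interferon-stimulated response element, searched on both strands, was in 3 of 36 (8.33%: Psmb3, Psmd4 and Psmd9), against 3.04% of all promoters, and in none of the promoters of Psmb8, Psmb9 and Psmb10 that were searched.

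Genes that work with the proteasome were followed in 5 lists, and 0 genes of any list passed in any tissue. The lists were proteasome partners (14 tested), ubiquitin genes with their E1 and E2 enzymes (10), the NRF1 axis with VCP (19 in fat and hypothalamus, 18 in muscle), MHC class I presentation (13) and muscle ubiquitin ligases (11, 10 in hypothalamus). Their medians in muscle were -0.06, 0.04, 0.08, 0.16 and 0.04, in that order. In fat they were -0.02, 0.00 (-0.00038 before rounding), -0.08, 0.09 and 0.07. In hypothalamus they were 0.02, -0.01 (-0.005 before rounding), 0.03, -0.03 and -0.08.

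In fat, Nfe2l1, which encodes the NRF1 factor that induces proteasome genes, was at 527, 493 and 593 CPM in vehicle and 310, 341, 318 and 388 CPM in oxaliplatin. Every oxaliplatin library was below every vehicle library, and mouse 5 was nearest to vehicle. The log2 change was -0.67 ± 0.15 (SE; edgeR adjusted p = 0.114). Ddi2, the protease that activates NRF1, had a log2 change of 0.85 ± 0.29 (edgeR adjusted p = 0.142), and Zfand2a, a proteasome-binding stress protein, of -0.40 ± 0.15 (edgeR adjusted p = 0.167). Of the partners, the deubiquitinase Usp14 was at -0.32 ± 0.11, the assembly factor Pomp at -0.31 ± 0.14 and the assembly factor Psmg4 at 0.46 ± 0.22, with edgeR adjusted p of 0.147, 0.201 and 0.231. The ubiquitin fusion gene Rps27a was at 0.54 ± 0.17 (edgeR adjusted p = 0.129), and the E2 enzyme Ube2d1 at -1.37 ± 0.57 (edgeR adjusted p = 0.185). For MHC class I, Canx was at 0.24 ± 0.12, B2m at -0.58 ± 0.34 and Irf1 at -0.59 ± 0.35, with edgeR adjusted p of 0.249, 0.303 and 0.311. Of the ligases, Fbxo31 was at 2.57 ± 0.82, Cblb at 0.37 ± 0.16 and Fbxo40 at -3.77 ± 1.66, with edgeR adjusted p of 0.132, 0.196 and 0.201. The values of Fbxo40 and Ube2d1 rested on the muscle-rich vehicle mouse 4: there Fbxo40 was at 131 CPM, against 0.58 and 0.87 CPM in the other vehicle libraries and 1.70 to 6.03 CPM in oxaliplatin, and Ube2d1 at 71.0 CPM, against 13.8 and 14.9 CPM and 10.9 to 15.3 CPM. Fbxo31 was at 45.0, 49.3 and 96.0 CPM in vehicle and 653, 505, 305 and 47.1 CPM in oxaliplatin, with mouse 5 inside the vehicle range.

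In hypothalamus the same lists had smallest p for Uchl5, a deubiquitinase of the base (0.31 ± 0.10), Psmf1 (0.26 ± 0.13) and Usp14 (-0.13 ± 0.08), with edgeR adjusted p of 0.382, 0.527 and 0.574. Rps27a (0.33 ± 0.12) and Ube2b (-0.21 ± 0.10) of the ubiquitin list had adjusted p of 0.439 and 0.521. Fbxo32 was at 24.6, 24.0 and 22.2 CPM in vehicle and 15.01, 15.5, 14.6 and 19.8 CPM in oxaliplatin, with no overlap, a log2 change of -0.54 ± 0.12 (SE; edgeR adjusted p = 0.237). Stub1 (-0.20 ± 0.08) and Traf6 (0.15 ± 0.09) came next, with adjusted p of 0.461 and 0.598. The interferon factor Irf1 (-0.43 ± 0.16) and the class I gene H2-K1 (-0.17 ± 0.13) had adjusted p of 0.431 and 0.664. Ufd1 (0.36 ± 0.15) and Hspa1b (0.60 ± 0.30) of the NRF1 and VCP list had adjusted p of 0.468 and 0.534.

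In muscle the smallest p of the lists belonged to Herpud1, a gene of the stress response of the endoplasmic reticulum (-0.30 ± 0.11, edgeR adjusted p = 0.363). Ufd1 (0.19 ± 0.10) and Ddi2 (0.40 ± 0.20) followed in its list, with adjusted p of 0.575 and 0.576. Irf1 (0.32 ± 0.21) and Tap1 (0.48 ± 0.38) of the MHC class I list had adjusted p of 0.705 and 0.791. Cblb (-0.23 ± 0.12) and Fbxo31 (0.19 ± 0.12) were the other ligases of small p beside Trim63, with adjusted p of 0.614 and 0.697. Among the partners were Ube3c (-0.16 ± 0.12), Uchl5 (-0.14 ± 0.13) and Psmf1 (0.13 ± 0.12), with adjusted p of 0.779, 0.824 and 0.857. Ubb (0.24 ± 0.17) and Ube2d2a (-0.13 ± 0.16) of the ubiquitin list had adjusted p of 0.746 and 0.894.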

How the data were processed

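The authors deposited expected counts per gene (read counts estimated per gene, so not always whole), 1 table per tissue, over 23 samples. Per the submitters' processing notes, STAR 2.5.1a, Partek and DESeq2 were used. The genome build, the counting tool and its strand setting were not given in the sources used here. In each table, gene starts matched GENCODE M21 (GRCm38) for 99.43% to 99.48% of shared identifiers. Per the labels' protocols, muscle libraries were made with another kit than fat and hypothalamus. Of the deposited values, 45.7% (muscle), 41.4% (fat) and 49.1% (hypothalamus) were not whole, and every row summed to at least 10. The depth sets the counting precision. None of 34 within-group pairs of libraries looked like copies (chi-square over its degrees of freedom at least 7.37).

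Values were rounded to whole counts. Each tissue was fitted alone, and pairs of tissues together only for the differences between tissues, with edgeR 4.0.16 in R 4.3.3: filterByExpr (minimum count 10, minimum total 15), TMM factors, the robust quasi-likelihood F test and Benjamini-Hochberg adjustment over all genes, with 0.05 as the threshold. The standard error is the size of the log2 change over the square root of F. DESeq2 1.42.0, limma 3.58.1 (voom), other filters and scalings, a replicate block and leaving out each library were alternatives. Library levels of a class are mean log2(CPM + 0.5) minus the vehicle mean.

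The scripts were tested on simulated counts with 200 genes changed. A first limit on the share of false calls per run was missed by 1 run, DESeq2 in hypothalamus at a fold of 1.5, where 7 of 53 calls (13.2%) were false. The limit was then set on both folds pooled, where the highest share was 8.90%, so DESeq2 calls are read with that in mind. At a fold of 1.5, edgeR recovered 34.5% of changed genes (muscle), 12% (fat) and 10% (hypothalamus). At a fold of 2 it recovered 97.5%, 92.5% and 91.5%. The simulation gave every gene in every tissue the same fixed spread between libraries, and changed only genes above a minimum mean count. Libraries that stand apart, like the 2 in fat, were not simulated. These shares therefore do not measure what could be detected in the real libraries.

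The genes, lists, motifs and tests were chosen with earlier results of these data known. Per-library values are given for the 3 genes of smallest p in each tissue and for the catalytic, immunoproteasome and PA28 genes. For tissue differences and lists, the 3 of smallest p are named, with Fbxo32 and Trim63 in muscle, except that some genes this rule names are not reported here.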

Additional observations from a re-analysis of the deposited data

Results flagged for a closer look

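Of 65 sets of 4 or 5 libraries looked at, 4 had a library far from the rest by Dixon's criterion, where chance flags about 1 in 20. Psmb5 in muscle vehicle mouse 4 was at 67.8 CPM, against 98.3 to 104 CPM in the other vehicle libraries. Psmb6 in muscle oxaliplatin mouse 5 was at 162 CPM, against 193 to 202 CPM. Psmb10 in fat oxaliplatin mouse 5 was at 33.7 CPM, against 14.96 to 16.5 CPM. Psmc3 in fat oxaliplatin mouse 5 was at 63.7 CPM, against 60.3 to 60.5 CPM, a small gap beside 3 nearly equal values.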

How the results depend on the processing

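Of the genes refitted singly under the alternatives (13 in fat, 10 in hypothalamus, 11 in muscle, 3 for each tissue difference and 11 between vehicle tissues), none changed direction past the threshold. The count of proteasome genes called in muscle and in hypothalamus was 0 under every alternative. In fat it was 3 with DESeq2, 0 to 6 with each library left out, and 7 with vehicle mouse 4 and oxaliplatin mouse 5 both out, a choice made after seeing the data. The fat median was -0.17 to 0.0073 with each library left out and 0.022 with both out. Without oxaliplatin mouse 5 of fat, 4 proteasome genes differed between fat and muscle (9.76%, against 8.64% of all genes) and 6 between fat and hypothalamus (14.6%, against 15.2%), shares near those of all genes and the highest of ranges from 0. DESeq2 gave 1 (2.44%, against 4.26%) and 2 (4.88%, against 6.09%). The cause was not tested.

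Over all genes, the number called in muscle (24) was 254 with DESeq2, 13 with limma-voom, 42 with no filter, 0 with oxaliplatin mouse 5 set to vehicle and 2 to 17 with each library left out. In fat (0) it was 2443 with DESeq2, 4084 with both libraries out and 0 to 4971 with each left out. In hypothalamus (28) it was 262 with DESeq2, 11 with limma-voom and 0 to 655 with each left out. For fat minus muscle (45) it was 804 with DESeq2 and 14 to 1626 with each left out. For fat minus hypothalamus (65) it was 104 with limma-voom, 1272 with DESeq2 and 3 to 3150 with each left out. For muscle minus hypothalamus (12) it was 195 with DESeq2 and 2 to 110 with each left out.

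Mouse numbers are shared between groups. The deviations of same-numbered libraries had correlations of -0.28 to 0.20 between arms and -0.25 to 0.18 between tissues. Between fat and hypothalamus all were positive, from 0.03 to 0.18, highest for oxaliplatin mouse 5. Between muscle and either other tissue they had both signs. Whether same-numbered libraries of fat and hypothalamus come from the same animal was not tested further. With the number as a replicate block, the genes called were 3 in muscle, 0 in fat, 64 in hypothalamus, 3 for fat minus muscle, 0 for fat minus hypothalamus and 0 for muscle minus hypothalamus. No proteasome gene was called in any of these blocked fits. Between vehicle fat and hypothalamus 21 proteasome genes were called with the block, against 23, within a range of 19 to 30 over the alternatives.

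Groups of 3 to 5 libraries limit what can be detected, and Psmb9 had only 22 to 53 counts a library in hypothalamus.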
